A study of Danio rerio with 15 samples.

Results

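The HSP70 heat shock proteins of the cytosol and their J-domain partners were examined in whole brains of adult zebrafish. The group comprised 10 genes: the HSP70 genes hspa8, hspa8b and hsp70.3, the HSP110-type genes hspa4a and hspa4b, and the J-domain genes dnaja1, dnaja2a, dnaja2b, dnajb1a and dnajb1b. They were chosen by name, from the annotation of the array, out of 8793 named genes. All 10 were measured, by 11 of the 15502 probe sets tested. Only dnaja2b had 2 probe sets, called here the brighter and the dimmer one.

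The study asked how the brain responds to a short selenium supplement, with 1 brain on each of 15 Affymetrix arrays. All fish were of the strain labelled Transgenic Mosaic 1, were 1 year old and were fed their diet for 14 days. The groups were 4 females and 4 males on a diet supplemented with sodium selenite (5.6 ppm selenium), and 3 females and 4 males on the control diet (1.4 ppm). The design text plans equal sexes in each diet, so 1 further control female is not analysed here.

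HSP70 proteins bind exposed hydrophobic stretches of unfolded proteins and release them in a cycle driven by ATP. J-domain proteins of the DNAJA and DNAJB classes deliver the substrate and trigger ATP hydrolysis. Proteins of the HSP110 type, such as the products of hspa4a and hspa4b, exchange the ADP left behind for new ATP. In vertebrates HSPA8, the cognate HSP70, and the DNAJA proteins are made at all times and help to fold new proteins. Neurons also use HSPA8 to uncoat clathrin vesicles. Genes of the hsp70 type and DNAJB1 are switched on by heat shock factor when unfolded proteins accumulate. Accordingly hsp70.3, dnajb1a and dnajb1b are called heat-inducible here, and the other 7 genes constitutive. The division follows textbook knowledge, mostly of mammals, and DNAJA1 and HSPA4 of mammals also respond to heat to some degree.

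The values are log2 expression per probe set as deposited, so a difference of 1 is a doubling. A level of 1 probe set cannot be set against that of another, because probes differ in how well they bind, and all comparisons below are between fish. In whole brain, a smaller share of cells with a transcript and less of it per cell cannot be told apart. Neuronal markers were bright in every brain, with a mean over 11 genes between 11.9 and 12.1. Signal of other tissues differed between brains. The mean of 32 skeletal muscle genes reached 8.91 in male selenium replicate 1 and 7.11 in replicate 3, while the other 13 fish lay at or below 6.66. The mean of 31 retina and lens genes was 7.80 in male selenium replicate 2 and 7.20 in replicate 4, and at most 6.28 elsewhere. For gapdh, signal at the 3′ end of the transcript exceeded that at the 5′ end by 0.97 to 1.84 log2 units in females and by 0.66 to 1.26 in males.

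No member passed the test of the diet in either sex. In females on selenium 10 of 11 probe sets stood below the controls and 1 above, while 51.7% of all probe sets stood above. The median log2 difference was -0.13, against 0.0062 over all probe sets. The 10 include dnaja1, hspa8b and hspa8, which lay near 0 at -0.0018, -0.027 and -0.033, and dnaja2b by both of its probe sets. With arrays centred on their medians, dnaja1, hspa8b and hspa8 stood above the controls instead, at 0.059, 0.034 and 0.028. The 3 heat-inducible genes had a median of -0.36 and the 8 constitutive probe sets a median of -0.067. In males on selenium 6 probe sets stood above the controls and 5 below, while 45.9% of all probe sets stood above. The median was 0.0068, against -0.013 over all probe sets. There the medians were 0.22 for the heat-inducible and 0.0019 for the constitutive probe sets. Other measures also differed between the diets in females, of which only the muscle mean did so without overlap. The mean of the muscle genes ran from 6.12 to 6.48 in females on selenium and from 5.72 to 5.94 in control females, without overlap. All 7 erythrocyte markers stood lower in females on selenium, with list means from 9.02 to 9.73, against 9.25 to 10.23 in control females. The gapdh 3′ excess averaged 1.59 ± 0.24 in females on selenium and 1.19 ± 0.37 in control females (SD, n = 4 and 3). It ran from 1.33 to 1.84 and from 0.97 to 1.61. In males on selenium 30 of 32 muscle genes and 28 of 31 retina and lens genes stood higher than in control males. With the muscle and retina means as covariates the female difference of hsp70.3, described next, was -0.74, and with the gapdh excess as a covariate it was -0.65 (limma, adjusted p = 0.784 and 0.732). The part of erythrocyte signal was not tested. Limma called 0 of 15502 probe sets (0.0%) in females and 0 (0.0%) in males at an adjusted p under 0.05. At an unadjusted p under 0.05 it found 1 of the 11 members in females, against 8.27% of all probe sets, and 0 in males, against 5.23%. For the mean over the sexes, and for the contrast of the sexes in their response, limma called 0 members and 0.0% of all probe sets each. At an unadjusted p under 0.05 each held 1 member, the dimmer dnaja2b probe set, against 5.19% of all probe sets for the mean and 8.37% for the contrast.

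**Figure D1:**
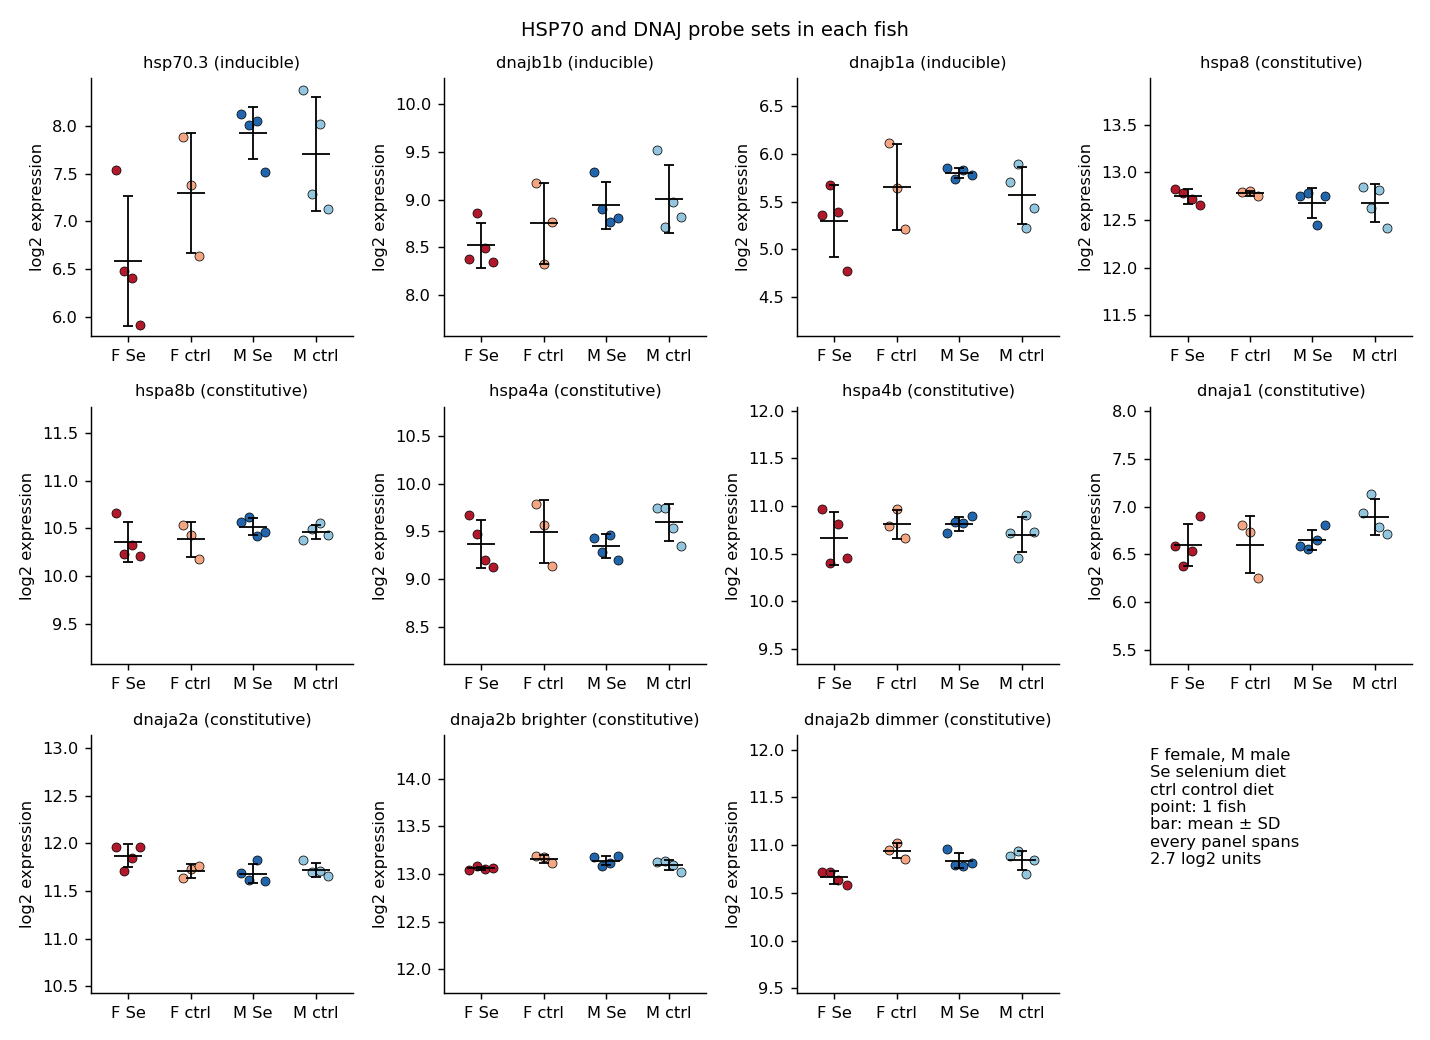
Log2 expression of the 11 HSP70 and DNAJ probe sets in each of 15 fish, with the mean and SD of each group as bars. All panels span an equal range; hsp70.3 runs from 5.92 to 8.38 over the 15 fish, and the brighter dnaja2b probe set from 13.02 to 13.19.

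The stress-inducible HSP70 gene hsp70.3 varied most between fish among the 10 genes. In females on selenium it stood at 7.54, 6.48, 6.41 and 5.92 log2 units, against 7.88, 7.38 and 6.63 in control females. Of the 4 females on selenium 1 lay above the middle control, and the other 3 lay below all controls. In males on selenium it stood at 8.13, 8.01, 8.06 and 7.52, against 8.38, 7.29, 8.02 and 7.13 in control males. The male groups lay within each other, with the highest and the lowest value both in controls. The log2 difference of the diet was -0.71 ± 0.39 (SE, n = 4 and 3; 95% confidence interval from -1.54 to 0.12) in females and 0.22 ± 0.36 (SE, n = 4 and 4; from -0.55 to 0.99) in males. Limma's adjusted p was 0.651 in females and 0.968 in males. Females minus males, the response differed by -0.935 ± 0.53 (limma, adjusted p = 0.634), and the mean of both sexes was -0.25 ± 0.26 (adjusted p = 0.984). In females the value ran from -1.0 to -0.42 with single fish left out. It was -1.5 without the 3 arrays of highest gapdh 3′ excess, all from females and chosen after the data were seen (limma, adjusted p = 0.267). Those 3 were the lowest control female, at 6.63, and the females on selenium at 7.54 and 6.48, the highest of their group. Only control replicates 1 and 2 and selenium replicates 3 and 4 remained in females. The gapdh excess and the choice of fish cannot be told apart there.

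The probe set of hsp70.3 is of a design that can bind near-identical transcripts, so its signal may hold other hsp70 copies. A further probe set, annotated to hsp70.1, hsp70l and hsp70.3 together, is not counted among the members. It read 7.94, 6.89, 6.80 and 5.96 in females on selenium, against 8.38, 8.03 and 7.15 in control females. In males on selenium it read 8.54, 8.51, 8.37 and 8.00, against 8.79, 7.77, 8.76 and 7.64 in control males. The fish thus took nearly the same order as with the hsp70.3 probe set, and the deviations of both from the group means had a Pearson r of 0.98 over 15 fish. The diet difference was -0.96 ± 0.42 in females (limma, adjusted p = 0.587) and 0.12 ± 0.39 in males (adjusted p = 0.988). Since both can bind the same transcripts, they are not independent readings.

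The J-domain genes dnajb1a and dnajb1b encode partners of the heat-inducible HSP70. For dnajb1b, females on selenium had 8.38, 8.86, 8.49 and 8.35 log2 units, against 9.17, 8.32 and 8.76 in control females. Males on selenium had 9.29, 8.90, 8.76 and 8.80, against 9.52, 8.72, 8.97 and 8.82 in control males. The diet groups overlapped in both sexes, with log2 differences of -0.23 ± 0.22 in females and -0.07 ± 0.20 in males (limma, adjusted p = 0.795 and 0.986). The highest value of all fish was in male control replicate 1, which also had the highest hsp70.3. Without that fish the male difference of dnajb1b was 0.10. The female difference also rested on single controls, with -0.024 without female control replicate 1 and -0.45 without replicate 2.

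For dnajb1a, females on selenium had 5.36, 5.68, 5.39 and 4.77, against 6.11, 5.65 and 5.21 in control females. Males on selenium had 5.85, 5.74, 5.84 and 5.77, against 5.70, 5.90, 5.22 and 5.44 in control males. The 4 males on selenium were the narrowest group of this gene, with an SD of 0.0523, and 3 of the 4 control males lay below them. The log2 difference was -0.36 ± 0.22 in females and 0.24 ± 0.21 in males (limma, adjusted p = 0.688 and 0.943). The difference between these was -0.59 ± 0.30 (limma, adjusted p = 0.61). With the muscle and retina signal of each array as covariates the male value was -0.028. With single fish left out the female value ran from -0.58, without control replicate 3, to -0.13, without control replicate 1, and it was -0.18 without selenium replicate 4. That last fish had the lowest dnajb1a value, 4.77. With a mean of 5.58 over all fish, this was the dimmest member probe set.

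**Figure D2:**
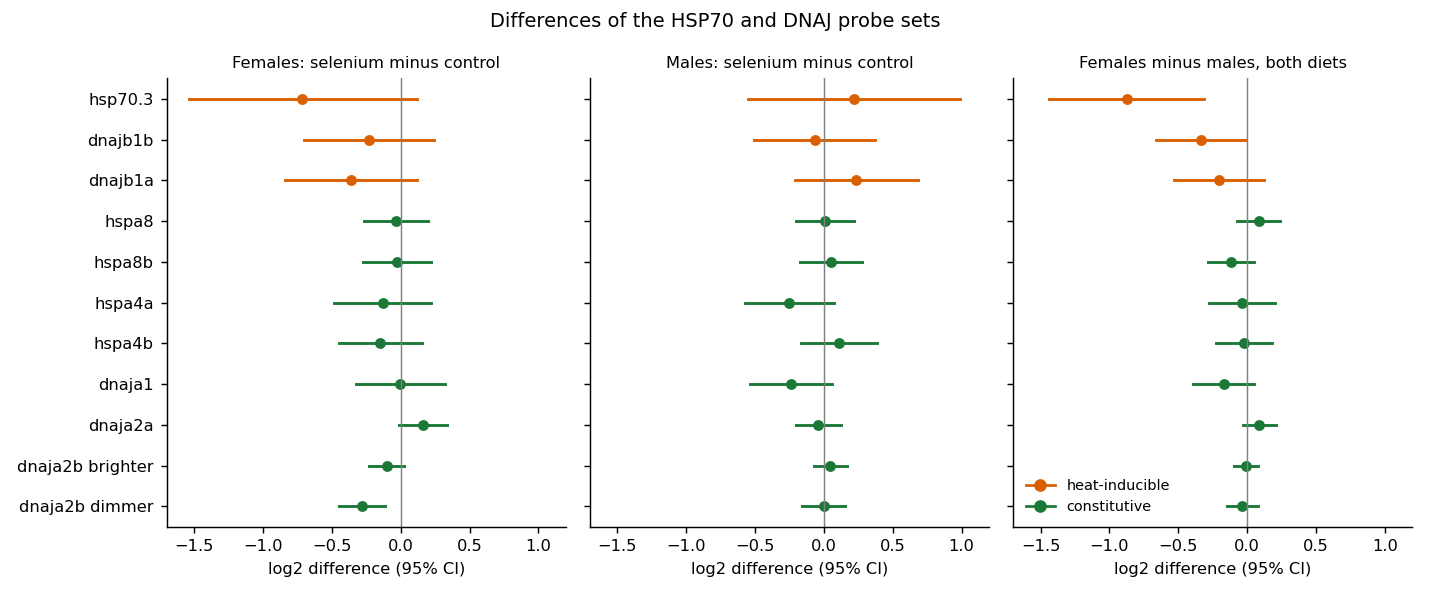
Log2 differences of the 11 probe sets with 95% confidence intervals, for selenium minus control in females, selenium minus control in males, and females minus males over both diets. The intervals of the dimmer dnaja2b probe set in females and of hsp70.3 and dnajb1b between the sexes leave out 0, before any adjustment for the number of probe sets tested.

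The cognate HSP70 gene hspa8, which also serves clathrin uncoating at synapses, ran from 12.42 to 12.85 over all fish. That range is narrow in log2 units, but among probe sets as bright the spread of hspa8 ranks high, as described below. Females on selenium had 12.83, 12.78, 12.72 and 12.65 log2 units, against 12.79, 12.80 and 12.75 in control females. Males on selenium had 12.75, 12.78, 12.45 and 12.75, against 12.85, 12.63, 12.81 and 12.42 in control males. The diet groups overlapped in both sexes, and the lowest 2 values were from 1 male of each diet. The log2 difference of the diet was -0.03 ± 0.11 in females (95% confidence interval -0.26 to 0.20) and 0.01 ± 0.10 in males (-0.21 to 0.22). Limma's adjusted p was 0.953 and 0.995. Its paralogue hspa8b lay between 10.18 and 10.67 over all fish. It differed by -0.03 ± 0.11 in females and 0.05 ± 0.11 in males (limma, adjusted p = 0.966 and 0.976).

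The nucleotide exchange factor genes hspa4a and hspa4b differed in sign between them in males and passed the test in neither sex. For hspa4a, males on selenium had 9.43, 9.28, 9.46 and 9.19 log2 units, against 9.74, 9.75, 9.53 and 9.35 in control males. Of the 4 males on selenium 2 lay below all controls and 2 lay above the lowest control. The log2 difference was -0.25 ± 0.15 in males and -0.13 ± 0.16 in females (limma, adjusted p = 0.937 and 0.849). Averaged over the sexes it was -0.19 ± 0.11 (adjusted p = 0.967). For hspa4b the difference was -0.15 ± 0.14 in females and 0.11 ± 0.13 in males (limma, adjusted p = 0.795 and 0.953). Its 15 values lay between 10.41 and 10.97.

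Of the constitutive J-domain genes, dnaja2b had diet groups without overlap in females. Its dimmer probe set read 10.72, 10.72, 10.63 and 10.58 in females on selenium, against 10.95, 11.02 and 10.86 in control females. Its brighter probe set read 13.04, 13.08, 13.05 and 13.06 in females on selenium, against 13.19, 13.18 and 13.11 in control females. With both probe sets all 4 females on selenium lay below all 3 controls. These were the only member probe sets without overlap in females, 2 of 11, against 6.95% of all probe sets. Both belong to the same gene, so they are not separate members. Their deviations from the group means had a Pearson r of 0.43 over 15 fish. The log2 difference was -0.28 ± 0.08 (SE, n = 4 and 3; 95% confidence interval from -0.445 to -0.114) for the dimmer probe set and -0.10 ± 0.06 (from -0.23 to 0.03) for the brighter one. With limma neither passed (adjusted p = 0.44 and 0.668). The value of the dimmer probe set ran from -0.37 to -0.22 over the 25 alternatives tried, with an adjusted p between 0.276 and 0.96.

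In males the same probe sets of dnaja2b overlapped between the diets. The dimmer one read 10.96, 10.79, 10.78 and 10.82 in males on selenium, against 10.88, 10.94, 10.70 and 10.84 in control males, and the log2 difference was -0.00 ± 0.07. For the brighter one the difference was 0.05 ± 0.05. The response of females minus that of males was -0.28 ± 0.11 for the dimmer probe set (limma, adjusted p = 0.56), and the mean over the sexes was -0.14 ± 0.05 (adjusted p = 0.865). Members without overlap in males numbered 0 of 11, against 4.1% of all probe sets.

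The paralogue dnaja2a stood the other way in females. It read 11.96, 11.71, 11.85 and 11.96 in females on selenium, against 11.63, 11.73 and 11.77 in control females, and 3 of the 4 lay above all controls. It was the 1 member with a positive difference in females, 0.16 ± 0.08, while in males it stood at -0.04 ± 0.08 (limma, adjusted p = 0.629 and 0.976). The difference between the sexes was 0.20 ± 0.11 (adjusted p = 0.63). The J-domain gene dnaja1 read 6.59, 6.56, 6.66 and 6.80 in males on selenium, against 6.94, 7.14, 6.78 and 6.72 in control males. There 3 of the 4 males on selenium lay below all controls. Its difference was -0.24 ± 0.14 in males and -0.00 ± 0.15 in females (limma, adjusted p = 0.937 and 0.999).

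Between the sexes hsp70.3 had the largest difference of the 11 probe sets. Over both diets it averaged 6.89 ± 0.71 in 7 females and 7.82 ± 0.45 in 8 males (SD). The females ran from 5.92 to 7.88 and the males from 7.13 to 8.38, so that the sexes overlapped. The female minus male difference, with the diets weighted equally, was -0.88 ± 0.26 (95% confidence interval from -1.44 to -0.31). That is 0.545 of the male level. For dnajb1b it was -0.34 ± 0.15, with means of 8.62 ± 0.32 in females and 8.97 ± 0.28 in males. For dnajb1a it was -0.20 ± 0.15, near that of the constitutive dnaja1. The constitutive genes had dnaja1 at -0.17 ± 0.10, hspa8b at -0.12 ± 0.08, dnaja2a at 0.09 ± 0.06, hspa8 at 0.08 ± 0.07, and hspa4a, hspa4b and both dnaja2b probe sets between -0.04 and -0.01.

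None of these sex differences passed, and 0 of 11 members were free of overlap between all females and all males, against 0.31% of all probe sets. Limma's adjusted p was 0.156 for hsp70.3, 0.316 for dnajb1b and between 0.46 and 0.948 for the other members. It called 0 of 11 members, against 22 of 15502 probe sets, or 0.142%. Unadjusted, p was under 0.05 for 2 of 11 members, hsp70.3 and dnajb1b, against 14.8% of all probe sets. With single fish left out the hsp70.3 difference ran from -1.0 to -0.71, with an adjusted p between 0.117 and 0.343. The shared hsp70 probe set gave -0.92 ± 0.29 (limma, adjusted p = 0.163).

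The sex difference of hsp70.3 was also taken within each diet. The 2 values were not shown to differ, since the test of that is the same as the test of the response between the sexes (limma, adjusted p = 0.634). Within the selenium diet the female minus male difference was -1.34 ± 0.36 (limma, adjusted p = 0.0823), and within the control diet it was -0.41 ± 0.39 (adjusted p = 0.914). On selenium 3 of the 4 females lay below all males, and female replicate 1, at 7.54, lay beside the lowest male, at 7.52. The shared hsp70 probe set, which is no member and no independent reading, had no overlap on selenium. Its highest female was at 7.94 and its lowest male at 8.00. Its difference was -1.46 ± 0.39 on selenium and -0.38 ± 0.42 on the control diet (limma, adjusted p = 0.0823 and 0.927). Also within the selenium diet, all females lay below all males for dnajb1a and for both probe sets of dnaja2b. That is 3 of 11 probe sets, with the single gene dnaja2b counted by both of its own, against 10.2% of all probe sets. For dnaja2b these are the same 4 females that lay below all control females, so the 2 results are not separate. For dnajb1a the difference on selenium was -0.50 ± 0.21 (limma, adjusted p = 0.214). Within the control diet 0 of 11 members were free of overlap, against 7.66%. There dnajb1a stood at 0.09 ± 0.22, the dimmer dnaja2b probe set at 0.10 and the brighter at 0.065. In these within-diet tests, which were chosen after the data were seen, limma called 0 members, against 1.05% of all probe sets on selenium and 0.0% on the control diet. Without adjustment, p was under 0.05 on selenium for 4 of 11 members, against 18.6% of all probe sets. These were hsp70.3, dnajb1a and the dimmer dnaja2b probe set, lower in females, and dnaja2a, higher in females. On the control diet it was 0 of 11, against 5.74%, and there dnaja1, at -0.29 ± 0.15, stood further from 0 than dnajb1b, at -0.25 ± 0.22.

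**Figure D3:**
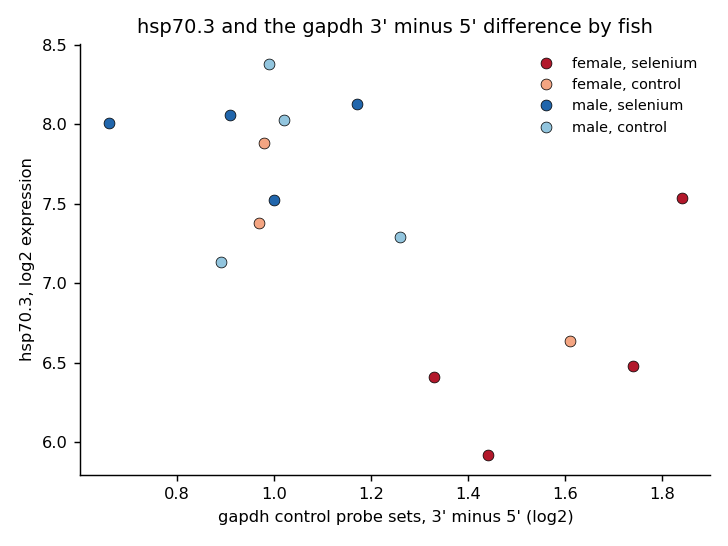
Log2 expression of hsp70.3 against the 3′ minus 5′ difference of the gapdh control probe sets, 1 point per fish. Females on selenium have differences of 1.33 to 1.84 and hsp70.3 of 5.92 to 7.54, and control females 0.97 to 1.61 and 6.63 to 7.88. Males on selenium have 0.66 to 1.17 and 7.52 to 8.13, and males on the control diet 0.89 to 1.26 and 7.13 to 8.38. Among females on selenium the fish at 1.84 has the highest hsp70.3, 7.54.

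Measures of RNA and of cell content also differed on average between the sexes, with ranges that overlapped. The gapdh 3′ minus 5′ difference averaged 1.42 ± 0.35 in females and 0.99 ± 0.18 in males (SD, n = 7 and 8). With it as a covariate the sex difference of hsp70.3 was -0.82 (limma, adjusted p = 0.623), and without the 3 arrays of highest difference it was -0.92 (adjusted p = 0.189). Of 11 neuronal markers 9 stood lower in females, and the list mean lay between 11.91 and 12.02 in females and between 11.99 and 12.07 in males. All 5 oligodendrocyte markers stood lower in females, with list means from 9.79 to 10.08 in females and from 9.99 to 10.17 in males. Of 11 radial glia markers 9 stood higher in females, with list means of 11.09 ± 0.07 in females and 10.95 ± 0.06 in males (SD). Of 11 microglia and leukocyte markers 8 stood higher in females, from 8.40 to 9.09, against 8.23 to 8.85 in males. The part of these cell types in the result was not tested. Muscle and retina signal, which set single males apart, left the sex difference at -0.85 as covariates (limma, adjusted p = 0.522).

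Heat-inducible members had a larger spread between fish than constitutive ones. The residual SD, which is the spread around the group means, was 0.561 log2 units for hsp70.3, 0.318 for dnajb1a and 0.313 for dnajb1b. Among the constitutive probe sets it ran from 0.0429 for the brighter dnaja2b probe set to 0.226 for hspa4a. All 3 heat-inducible probe sets thus lay above all 8 constitutive ones, and they did so with any single fish left out. The median over all probe sets was 0.169. By the spread, hsp70.3 ranked at the 96.9th percentile of all probe sets, dnajb1a at the 87.8th and dnajb1b at the 87.4th.

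Spread on the log2 scale depends on signal, so each member was also ranked among probe sets whose mean lay within 0.5 log2 units of its own. There hsp70.3 kept a high rank, at the 95.3rd percentile, and dnajb1b lay at the 89.2nd and dnajb1a at the 79th. The rank of hspa8 was the 91.7th percentile among 254 probe sets as bright, against the 33.2nd among all. Likewise hspa4b ranked at the 86th against the 58.9th, and hspa4a at the 81.5th against the 72nd. The gap between heat-inducible and constitutive genes was therefore a gap in absolute spread, and it did not hold for the rank among probe sets of like signal. The dimmer probe set of dnaja2b lay at the 18.4th percentile of its like and the brighter at the 7.8th.

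**Figure D4:**
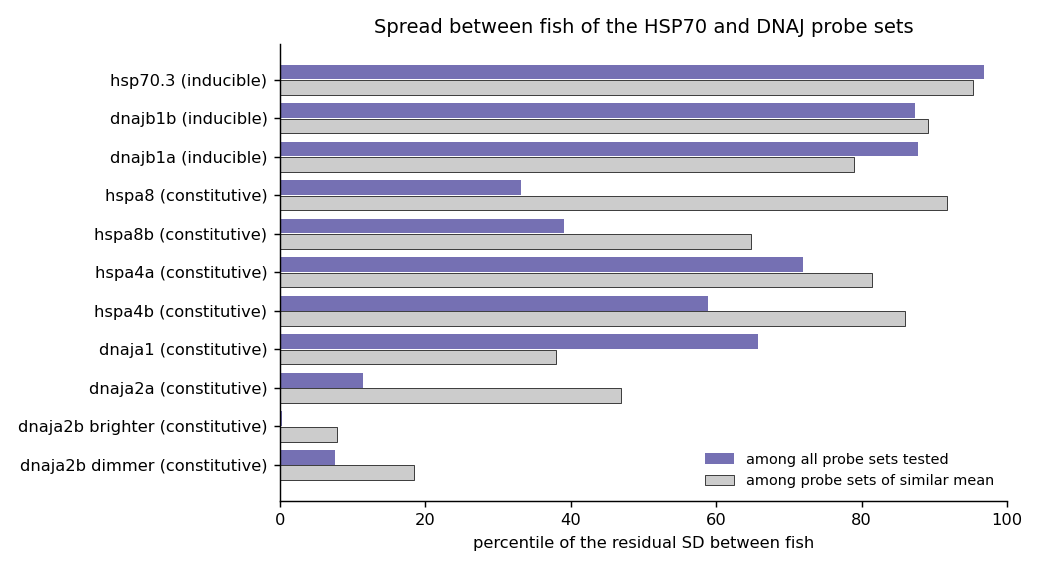
Percentile of the residual SD between fish for each of the 11 probe sets, among all 15502 probe sets and among those of a similar mean. hsp70.3 is at the 96.9th and the 95.3rd percentile, while hspa8 is at the 33.2nd and the 91.7th.

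The members were compared for fish that deviated together from their group means. In 9 pairs fixed for the test the highest Pearson r was 0.54, for hsp70.3 with hspa8 (Spearman rho 0.66, n = 15). Its permutation p was 0.0402 for r and 0.0202 for rho, and 0.362 and 0.182 after Benjamini-Hochberg adjustment over the 9 pairs. Without the 2 fish furthest from the median of hsp70.3, female selenium replicates 3 and 4, r was 0.48. The partners hsp70.3 and dnajb1b had an r of 0.42 and a rho of 0.41 (permutation p = 0.19 and 0.195, adjusted 0.393 and 0.439). For hsp70.3 with dnajb1a r was 0.43 and rho 0.47 (permutation p = 0.218 and 0.162, adjusted 0.393 and 0.439). The paralogues hspa4a and hspa4b had an r of 0.16 and a rho of -0.02 (permutation p = 0.635 and 0.961, adjusted 0.815 and 0.961). For the paralogues hspa8 and hspa8b r was 0.35 and rho 0.41 (permutation p = 0.0862 and 0.0751, adjusted 0.388 and 0.338). None of the 9 pairs passed.

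Over all 45 pairs of the 10 genes r lay above 0 for 33, with a median of 0.24. The members share the arrays and their normalisation, so these values are a description. The highest was 0.81 for hsp70.3 with hspa4a, a pair singled out after its value was seen, followed by 0.76 for dnajb1a with hspa4a and 0.70 for hsp70.3 with hspa8b. The lowest was -0.40 for dnajb1a with dnaja2a. With dnajb1b, the other heat-inducible gene, hspa4a had an r of 0.31.

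**Figure D5:**
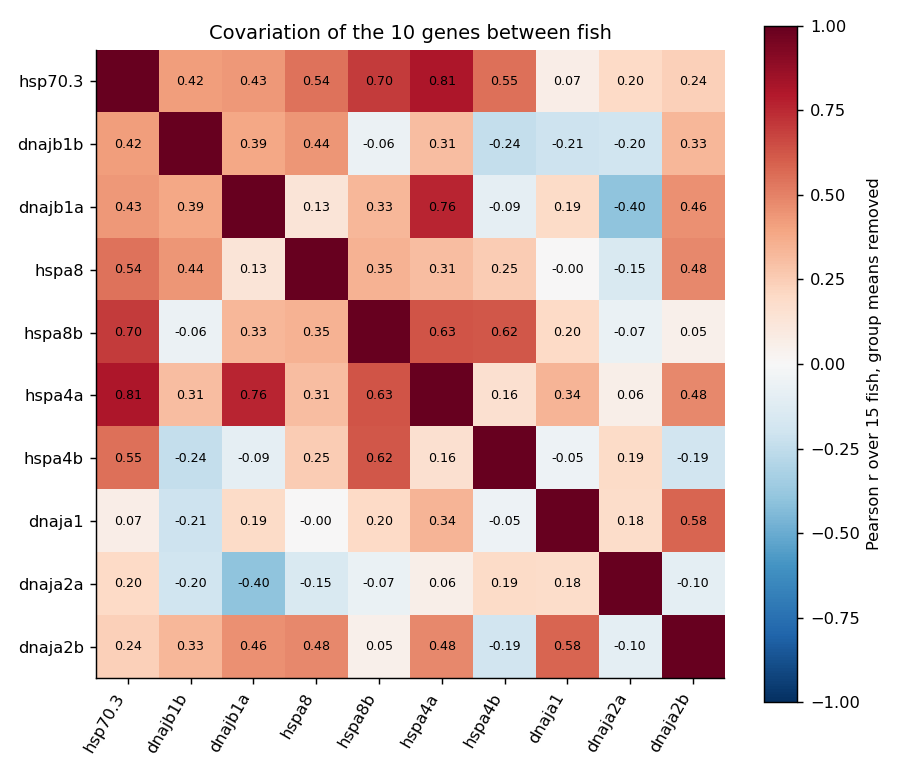
Pearson r between the 10 genes over 15 fish after removal of the group means, with the brighter probe set of dnaja2b. The row of hsp70.3 holds 0.81 with hspa4a, 0.70 with hspa8b and 0.42 with dnajb1b.

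Among all named genes outside the group, the 5 whose deviations were most like those of hsp70.3 over the 15 fish were clk4a (r = 0.89), fosl2 (0.88), rsrp1 (0.86), xpc (0.83) and ruvbl1 (0.82). The first encodes a kinase of splicing factors and fosl2 a subunit of AP-1. The signal of xpc was dim, with means of 4.925 in females and 4.921 in males. The array has 3 probe sets for fosl2, and they disagreed: the one with this r had a mean of 7.64, another, with a mean of 6.88, had an r of 0.72, and the brightest, with a mean of 9.32, had an r of -0.20. The sex difference was -0.24 for clk4a, -0.17 for this fosl2 probe set, -0.08 for rsrp1, -0.0016 for xpc and 0.0042 for ruvbl1. None of the 5 passed (limma, adjusted p between 0.155 and 0.995). For hspa8 they were txnrd3 (0.91), a thioredoxin reductase and selenoprotein gene, mocs3 (0.85), degs1 (0.84), smfn (0.84) and abhd2b (0.83). Of these, abhd2b was dim, with means of 5.01 in females and 4.96 in males. The genes like hsp70.3 and those like hspa8 were picked from all named genes for their r, which is given with no test.

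The wider HSP70 system was read from 4 lists, by the brightest probe set of each gene. Of 6 other HSP70 family genes measured, 3 stood higher and 3 lower in females on selenium (median log2 difference 0.0019), and 4 higher and 2 lower in males (0.031). The gene with the largest difference was hspa12a, a distant relative of HSP70, at -0.65 ± 0.58 in females and 1.46 ± 0.53 in males (limma, adjusted p = 0.782 and 0.937). Females minus males, its response was -2.11 ± 0.79 (limma, adjusted p = 0.56). Of the endoplasmic reticulum members, hspa5 stood at -0.10 ± 0.13 in females and 0.08 ± 0.12 in males, and hyou1 at 0.19 ± 0.12 in females and -0.04 ± 0.11 in males. The mitochondrial hspa9 stood at -0.11 ± 0.09 in females and -0.05 ± 0.08 in males. The dim hspa1b, with group means from 4.88 to 5.16, stood at 0.11 ± 0.12 in females and 0.05 ± 0.11 in males. For hspa14 the values were 0.16 ± 0.08 in females and 0.01 ± 0.07 in males. Between the sexes hyou1 was at 0.25 ± 0.08, hspa14 at 0.125 ± 0.053 and hspa1b at -0.20 ± 0.08 (limma, adjusted p = 0.169, 0.29 and 0.271). Of 13 cochaperones of HSP70, 2 stood higher and 11 lower in females (median -0.095), and 7 higher and 6 lower in males (0.021). The exchange factor gene hspbp1 stood at -0.32 ± 0.12 in females and 0.14 ± 0.11 in males (limma, adjusted p = 0.53 and 0.937).

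Of 23 other J-domain genes, 16 stood higher and 7 lower in females on selenium (median 0.12), and 9 higher and 14 lower in males (-0.027). The smallest p of this list in females was that of dnajc17, at -0.48 ± 0.15 (limma, adjusted p = 0.464). Also in this list, dnajc18 stood at 0.19 ± 0.07 in females and -0.15 ± 0.06 in males, a difference of 0.34 ± 0.09 (limma, adjusted p = 0.482). Of 21 genes of the heat shock response, 3 of which (chordc1a, chordc1b and hikeshi) are also among the 13 cochaperones, 6 stood higher and 15 lower in females (median -0.052), and 13 higher and 8 lower in males (0.038). The smallest p of this list in males was that of hspb1, at 0.31 ± 0.13 (limma, adjusted p = 0.937). Among the cytosolic HSP90 genes, hsp90aa1.2 stood at -0.37 ± 0.13 in females and hsp90aa1.1 at 0.66 ± 0.32 in males (limma, adjusted p = 0.504 and 0.937). In the other sex, means on selenium and control were 11.76 and 11.68 for hsp90aa1.2 in males, and 5.31 and 5.58 for hsp90aa1.1 in females. In males on selenium 30 of 32 muscle genes also stood higher, and the part of muscle signal in the hspb1 and hsp90aa1.1 values was not tested. Between the sexes 8 of the 21 heat shock response genes stood higher in females and 13 lower (median -0.071). Among these hsf2, a heat shock factor gene, was at -0.31 ± 0.10 (limma, adjusted p = 0.18). Genes of these 4 lists past the test numbered 0 in each of the 5 comparisons, where limma called 0.0% of all probe sets in the 4 diet comparisons and 0.142% between the sexes. Unadjusted, p was under 0.05 in females for 0 of 6 HSP70 family genes, 1 of 13 cochaperones, 4 of 23 J-domain genes and 1 of 21 heat shock response genes, against 8.27% of all probe sets. In males it was 1 of 6, 1 of 13, 3 of 23 and 1 of 21 in the same order, against 5.23%. Between the sexes it was 3 of 6, 1 of 13, 2 of 23 and 1 of 21, against 14.8%. For the mean over the sexes it was 0 of 6, 0 of 13, 2 of 23 and 0 of 21, against 5.19%, and for the contrast of the responses 1 of 6, 1 of 13, 4 of 23 and 2 of 21, against 8.37%.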

How the data were processed

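Whole-brain RNA of 15 zebrafish was hybridised to Affymetrix GeneChip arrays, 1 colour and 1 fish each. The deposited values are log2 expression for each probe set. RMA and affy are the tools named, per the submitters' processing notes, with no version in the sources used here. RMA corrects background, equalises the distributions of the arrays and summarises probes, so a shift of all genes would be removed. The values were used unscaled. The 115 control probe sets were left out. Of 15502 probe sets 10795 had 1 gene symbol, 135 several and 4572 none; symbols were updated through Entrez IDs. No low-signal filter was applied; 11 of 11 member probe sets averaged at least 5.

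Groups came from the labels. One limma 3.58.1 model (R 4.3.3) of the 4 group means gave 5 comparisons, two-sided, adjusted by Benjamini-Hochberg over all 15502 probe sets, with 11 residual degrees of freedom. It was tested on simulated data. Correlations used deviations from group means with 100000 permutations of fish within groups. Fish numbers were unique, and no label names a batch. The number of arrays limits the precision. Named genes are the 10 members and the 5 most like hsp70.3 and hspa8 by r. Of the 3 genes of smallest p in each related list and comparison, only some are named. Members and lists were chosen with earlier results of these data known. Alternatives were other normalisations, filters, weights, variance models, covariates and left-out fish.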

Additional observations from a re-analysis of the deposited data

Results flagged for a closer look

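In 33 tests of a group of 4 fish for a lone value, 1 value of the 11 probe sets stood apart: hspa8 in male selenium replicate 3, at 12.45, while the nearest of the other 3 males on selenium was at 12.75. Its gap was 0.892 of the range of the group. Such a test points to about 1 group in 20 by chance, and the 3 control females were too few for it. Male control replicate 4, at 12.42, was as low.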

How the results depend on the processing

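No paired analysis was possible because the labels number every fish separately and share no number between groups. Over 12 settings and 15 single fish left out, no member passed in any of the 5 comparisons, and the smallest adjusted p of a member was 0.0823, for hsp70.3 within the selenium diet. The female diet difference and the sex difference of hsp70.3, dnajb1b and the shared hsp70 probe set kept their sign throughout, though that of dnajb1b in females came to -0.024 with 1 control left out. Constitutive members also kept a sign. In females these were dnaja2a (0.12 to 0.22), hspa4b (-0.25 to -0.057) and both dnaja2b probe sets. Between the sexes they were hspa8 (0.041 to 0.2), hspa8b (-0.17 to -0.046) and dnaja1 (-0.29 to -0.025). All 3 heat-inducible probe sets kept a larger spread than all constitutive ones with arrays centred and with each fish left out. A planned search of promoters for heat shock elements was not run, for want of sequences here, and the choice of probe set concerned dnaja2b alone, for which both are given.

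Over all probe sets, the count between the sexes was 57 with array weights, 42 with a trend and robust variances, 5 with the gapdh covariate, 0 with the muscle and retina covariates, 7 without male selenium replicates 1, 2 and 4, 162 within the selenium diet and 0 within the control diet, and it ran from 2 to 64 with single fish left out. Without those 3 males the count was 1 in females, 15 in males, 17 for the mean and 3 for the difference of the diet effects. Leaving out those 3 males left replicate 3 as the only fish of the male selenium group. Apart from the count in females, the counts of that setting rest on this single fish for selenium males. No conclusion is drawn from them. Without the 3 arrays of highest gapdh difference the count was 15 in females and 2 for the mean. The muscle and retina covariates gave 2 in females and 1 for the mean, and a fit of the females alone gave 1. With single fish left out it ran from 0 to 5 in females and from 0 to 3 for the mean. The cause of these shifts was not tested.

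Some values changed sign, all of them at most 0.24 in size as reported. In females, centring gave 0.028 for hspa8, 0.034 for hspa8b and 0.059 for dnaja1. There dnaja1 was also 0.034 with quantiles, 0.11 with gapdh and 0.012 with muscle and retina as covariates, and hspa8b 0.0091 with array weights. In males, hspa8 was -0.011 with centring, -0.003 with quantiles, -0.20 with the muscle and retina covariates and -0.23 without replicates 1, 2 and 4 on selenium. That last setting left replicate 3 alone in the male selenium group, the fish with the lone hspa8 value of 12.45. Values from it rest on that single fish. The covariates gave -0.028 for dnajb1a, -0.064 for hspa8b, 0.096 for dnaja2a and -0.068 for the shared hsp70 probe set, and leaving out those 3 males gave -0.039 for hspa8b and 0.10 for dnaja2a. The dimmer dnaja2b probe set was 0.0049 with gapdh and 0.021 with quantiles. Between the sexes, hspa4a was 0.047 with weights, 0.018 with muscle and retina and 0.024 within the selenium diet. There hspa4b was 0.026 with weights, 0.069 with gapdh, 0.11 within the control diet and 0.00086 without the 3 arrays of high gapdh difference. The brighter dnaja2b probe set was 0.0063 with muscle and retina, 0.0038 without the 3 males, 0.0012 without the 3 arrays and 0.065 within the control diet, and the dimmer 0.030 with muscle and retina and 0.10 within the control diet. Within the control diet dnajb1a was 0.092 and dnaja2a -0.012. Centring turned r to 0.07 for hspa8 with dnaja1 and to 0.12 for dnaja2a with dnaja2b.

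With single fish left out, the female difference ran from -0.17 to 0.10 for dnaja1, from -0.31 to 0.013 for hspa4a and from -0.13 to 0.05 for hspa8b. The male one ran from -0.051 to 0.03 for the dimmer dnaja2b probe set, from -0.18 to 0.10 for dnajb1b, from -0.084 to 0.30 for the shared hsp70 probe set and from -0.078 to 0.085 for hspa8. The sex difference ran from -0.022 to 0.0027 for the brighter dnaja2b probe set, from -0.11 to 0.054 for hspa4a and from -0.073 to 0.021 for hspa4b.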

Other observations

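Immediate early genes, which neurons switch on soon after activity, were read beside the chaperones, by the brightest probe set of each gene, which for fosl2 is the one with an r of -0.20 with hsp70.3. Of 22 measured, 14 stood higher and 8 lower in females on selenium than in control females, with a median log2 difference of 0.11. In males on selenium 3 stood higher and 19 lower than in control males, with a median of -0.24. Between the sexes 4 stood higher in females and 18 lower, with a median of -0.11. With limma 0 of the 22 passed in any of the 5 comparisons, and the smallest adjusted p was 0.0962, between the sexes. Unadjusted, p was under 0.05 for 3 of 22 in females, against 8.27% of all probe sets, for 4 in males, against 5.23%, and for 6 between the sexes, against 14.8%. It was also under 0.05 for 2 for the mean over the sexes, against 5.19%, and for 7 for the contrast of the responses of the sexes, against 8.37%.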
